A study of Homo sapiens with 6 samples.

Results

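MicroRNA host genes are longer transcription units that carry one or more microRNA hairpins in their exons or introns, and those named here are the genes whose symbol starts with MIR and ends with HG. The deposited count table held 54 of them among 39293 gene names, and 16 of the 54 passed the low-count filter and could be tested. All libraries came from SW480, an epithelial line grown from a human tumor of the colon. In 3 wells the medium held dihydroartemisinin (DHA), to which artemisinin drugs against malaria are converted in the body, at 20 µg/mL for 4 h. The other 3 wells, the control, held only the solvent, 0.1% DMSO, for 4 h, and how much DMSO the DHA wells held is not labelled. Poly(A) RNA was sequenced and reads were counted per gene. Separate cultures are not named in the labels, so the p-values take the well-to-well spread as error, and that spread may be technical.

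A microRNA host transcript is cut in the nucleus by the Drosha and DGCR8 complex, which frees the hairpin, and Dicer then cuts the hairpin to the short duplex from which an Argonaute protein takes the mature strand. The mature strand pairs with target messages mainly through its seed, bases 2 to 8 from the 5′ end. Mature microRNAs have no poly(A) tail, so every level here is that of a host transcript. Where the hairpin lies in an exon, cutting destroys the host RNA, and where it lies in an intron the spliced host can survive.

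The 7 host transcripts that passed the test carry 20 mature microRNAs with 17 distinct seeds in RefSeq (GRCh38.p14). The sequences below are those of the 5 hosts that changed at least 2-fold, MIR22HG, MIR31HG, MIR4435-2HG, MIR4697HG and MIR600HG, shown so that the strand each host would supply can be read. They run 5′ to 3′ with the seed in capitals.
hsa-miR-22-3p: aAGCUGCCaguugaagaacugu
hsa-miR-22-5p: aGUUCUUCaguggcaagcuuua
hsa-miR-31-5p: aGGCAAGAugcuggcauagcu
hsa-miR-4435: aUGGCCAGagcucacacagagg
hsa-miR-4697-3p: uGUCAGUGacuccugccccuuggu
hsa-miR-600: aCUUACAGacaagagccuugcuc

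None of these 6 strands shares a seed with another. The hairpins of miR-22, miR-4697 and miR-600 lie in exons of their hosts, and those of miR-31 and miR-4435 lie in introns. The other 2 hosts that passed, MIR34AHG and MIR17HG, carry their hairpins in exons. MIR17HG is the host of the oncogenic microRNA cluster that starts with miR-17, known from lymphoma and other cancers, and its strands fall in part into seed families. The lines below show, from that cluster, the 2 pairs of strands with a shared seed among its leading strands, and then the leading strand of miR-34a.
hsa-miR-17-5p: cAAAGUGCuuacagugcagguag
hsa-miR-20a-5p: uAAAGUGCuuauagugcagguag
hsa-miR-19a-3p: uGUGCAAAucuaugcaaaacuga
hsa-miR-19b-3p: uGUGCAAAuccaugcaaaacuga
hsa-miR-34a-5p: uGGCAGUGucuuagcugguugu

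miR-17-5p and miR-20a-5p share the seed AAAGUGC, and miR-19a-3p and miR-19b-3p share GUGCAAA. The 5′ strands miR-19a-5p and miR-19b-1-5p also share a seed, GUUUUGC.

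By chi-square per gene, DHA replicate 2 stood apart from the other DHA libraries, at 14.9 and 15.1, beside 1.66 between those, and control replicate 2 from the other control libraries, at 8.99 and 8.60, beside 3.33. Without DHA replicate 2 the same 7 hosts passed as with all libraries, and without control replicate 2 those 7 and also MIR100HG and MIR194-2HG did. DHA libraries held 14810697, 16653074 and 14291726 counts, and control libraries held 18938456, 15807037 and 16681847, so that 3 counts equal 0.158 to 0.210 CPM, counts scaled to a library total of 1000000. Of 15811 genes tested, 9431 passed at an adjusted p under 0.05, which is 59.6%, with 4674 higher in DHA and 4757 lower. Epithelial markers had summed levels of 5540 to 5706 CPM in DHA and 4299 to 4711 CPM in control libraries, most of it KRT8, with means of 3308 CPM in DHA and 2831 CPM in control. Of the 9, 8 passed the filter, of which KRT8, KRT18 and KRT19 rose and CDH1 fell. Among intestinal markers KRT20, at 2.08 CPM in DHA and 2.33 CPM in control, was low. So was VIL1, at 0.640 CPM in DHA and 0.137 CPM in control. CDX2, also an intestinal marker, was higher, with means of 29.5 CPM in DHA and 33.3 CPM in control. The summed level of leukocyte markers was 3.30 to 5.60 CPM in DHA and 0.443 to 1.06 CPM in control libraries, with PTPRC at 0, and that of fibroblast markers was 70.6 to 93.1 CPM in DHA and 21.0 to 29.6 CPM in control libraries, with COL1A2, DCN and LUM at 0. Within these lists CD14 rose by 3.03 on the log2 scale, and COL1A1 rose by 1.75, with means of 78.8 CPM in DHA and 25.1 CPM in control libraries. That of endothelial markers was 1.08 to 2.04 CPM in DHA and 1.26 to 2.09 CPM in control libraries. The part of these markers in the host transcripts' values was not tested, and in bulk RNA fewer cells of a type and less RNA per cell cannot be told apart.

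After 4 h of DHA, 3 of the 16 tested host transcripts rose, MIR22HG, MIR4435-2HG and MIR31HG, and 4 fell, MIR4697HG, MIR600HG, MIR34AHG and MIR17HG. The other 9 did not pass. The 7 calls are 43.8% of the tested hosts, beside 59.6% of all tested genes. Of the 16 tested hosts, 3 rose at least 2-fold, beside 1695 of 15811 tested genes (10.7%). Of the same 16, 2 fell at least 2-fold, beside 785 of 15811 tested genes (4.96%). By level, 8 of the 16 tested hosts had a mean of at least 5 CPM and 8 had less. Of genes with a mean of at least 5 CPM 66% passed, and 5 of 8 hosts did. Of genes below 5 CPM 44.4% passed, and 2 of 8 hosts did. The part of level in the share of hosts that passed was not tested. The median log2 fold change of the 16 hosts was 0.16, beside 0.01 over all tested genes.

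**Figure D1:**
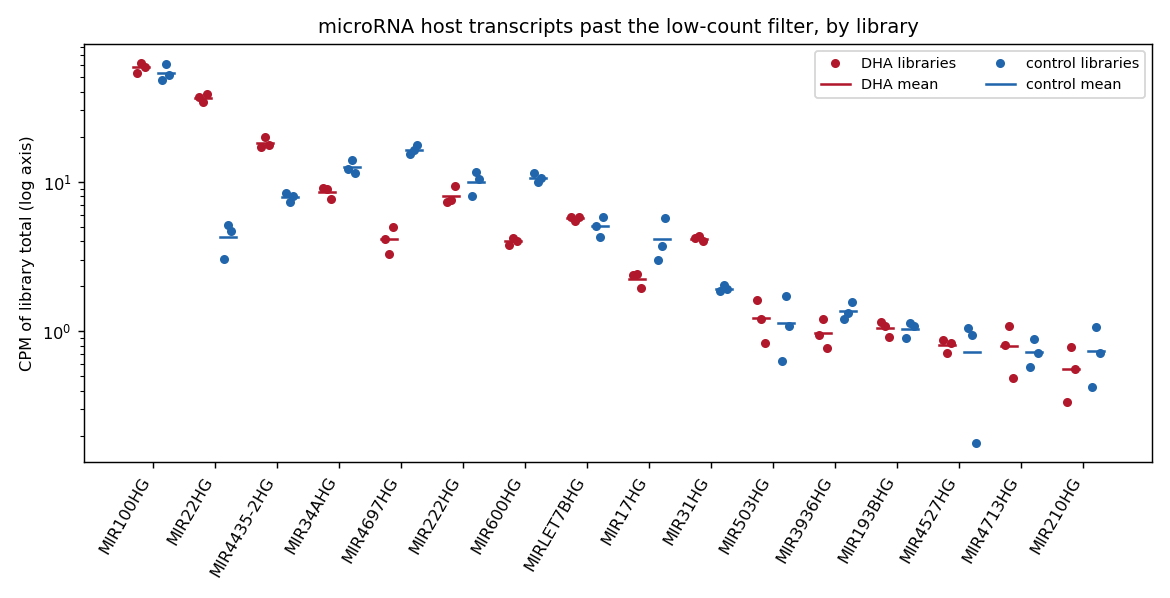
CPM of each of the 16 tested host transcripts in each library on a log axis, with DHA left of control for each gene; points are libraries and short lines are group means. MIR100HG stands highest in both groups, and MIR22HG is the host whose DHA points (34.3 to 38.3 CPM) lie farthest above its control points (3.06 to 5.12 CPM).

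Summed over all 54 hosts, the level was 153, 164 and 162 CPM in DHA libraries, against 123, 145 and 135 CPM in control libraries. The groups did not overlap, and MIR22HG accounts for that: without it the sum was 116, 130 and 124 CPM in DHA libraries, against 120, 140 and 131 CPM in control libraries, and the groups overlapped. MIR100HG alone made up 36.3% of the sum in DHA and 39.9% in control. Per kilobase of exon the order of the leading hosts differed from the order in CPM: in DHA, MIR22HG led with 12.2 CPM per kilobase, followed by MIR31HG with 5.59, MIR100HG with 2.99 and MIR222HG with 2.89. In control, MIR222HG led with 3.59 CPM per kilobase, and MIR4697HG with 3.17, MIR100HG with 2.77 and MIR31HG with 2.59 followed.

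MIR22HG showed the largest rise of the 16 tested hosts. It hosts miR-22, a microRNA with reported roles in heart, metabolism and cancer, and lies on chromosome 17 at 1711493 to 1717174 on the minus strand, with 4 exons. Its level was 36.5, 34.3 and 38.3 CPM in DHA libraries, against 3.06, 5.12 and 4.68 CPM in control libraries. Every DHA library lay far above every control library. The counts behind these levels were 541, 571 and 547 in DHA and 58, 81 and 78 in control. The log2 fold change was 3.19 ± 0.15 (SE), a 9.14-fold rise, and its p, adjusted by Benjamini-Hochberg after the quasi-likelihood F test of edgeR, was 2.01e-08. MIR22HG overlaps WDR81, a gene on the opposite strand, and the counting is not stated to use strand, so reads from the overlap cannot be assigned with certainty.

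MIR4435-2HG hosts miR-4435 in an intron and spans chromosome 2 from 111196350 to 111495100 on the minus strand, with 26 exons after merging its transcripts. It had 17.0, 19.8 and 17.6 CPM in DHA libraries, against 8.45, 7.28 and 8.03 CPM in control libraries. The groups did not overlap. Its log2 fold change was 1.29 ± 0.11 with an adjusted p of 2.18e-06 in edgeR's test. MIR4435-2HG has a near copy, CYTOR, a long noncoding RNA on the same chromosome, which holds 21.6% of the runs of 50 bases in MIR4435-2HG, so the counting could have split reads between them. CYTOR had 4.12, 5.16 and 3.71 CPM in DHA, against 2.53, 3.61 and 2.34 CPM in control libraries, with a log2 fold change of 0.72 ± 0.22 and an adjusted p of 0.0130.

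MIR31HG hosts miR-31 in an intron on chromosome 9, from 21455642 to 21559669 on the minus strand. It is itself a long noncoding RNA reported to repress CDKN2A. It had 4.19, 4.32 and 3.99 CPM in DHA libraries, against 1.85, 2.02 and 1.92 CPM in control libraries. Every DHA value was above every control value. The log2 fold change was 1.21 ± 0.19 with an adjusted p of 0.000163 in edgeR's test. Of its runs of 50 bases, 36.9% also occur in IFNWP19, a pseudogene on the opposite strand, which had a mean of 0.182 CPM in DHA and 0.0576 CPM in control libraries.

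Of the 4 hosts that fell, MIR4697HG fell most. It is annotated as a transcript to be experimentally checked, with 1 exon of 5164 bases, on chromosome 11 at 133896438 to 133901601 on the minus strand. Its level was 4.12, 3.30 and 4.97 CPM in DHA libraries, against 15.3, 16.2 and 17.7 CPM in control libraries. The groups lay apart, with every DHA library lower. The log2 fold change was -1.90 ± 0.16 with an adjusted p of 1.33e-06 in edgeR's test.

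MIR600HG, the host of miR-600, has a single exon of 5984 bases on the minus strand of chromosome 9 at 123109494 to 123115477, annotated as sense intronic. It overlaps STRBP on the same strand. Annotated transcripts of STRBP hold 3.5% of the runs of 50 bases in MIR600HG, so reads from these cannot be assigned with certainty. That share leaves out introns of STRBP, which had means of 36.8 CPM in DHA and 52.6 CPM in control libraries. Reads of unspliced STRBP RNA could be counted over all of MIR600HG, and their part was not tested. MIR600HG had 3.78, 4.20 and 3.99 CPM in DHA libraries, against 11.4, 10.0 and 10.6 CPM in control libraries. All 3 DHA values were below all 3 control values. The log2 fold change was -1.32 ± 0.14 with an adjusted p of 7.95e-06 in edgeR's test. Both tested hosts with a single exon, MIR4697HG and MIR600HG, were the ones that fell at least 2-fold. The only other single-exon host, MIR497HG, was too low to test, so this description, made after the values were seen, rests on 2 genes.

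MIR34AHG hosts miR-34a, a microRNA that p53 induces and that restrains cell cycle genes. SW480 is known to carry mutant p53. MIR34AHG spans chromosome 1 from 9148011 to 9196983 on the minus strand. It had 9.05, 8.89 and 7.63 CPM in DHA libraries, against 12.2, 13.9 and 11.5 CPM in control libraries. The groups did not overlap, and the log2 fold change was -0.46 ± 0.13 with an adjusted p of 0.00805 in edgeR's test. LNCTAM34A overlaps it on the opposite strand, so strand matters for these counts too.

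MIR17HG spans chromosome 13 from 91347820 to 91354579 on the plus strand. It had 2.36, 2.40 and 1.96 CPM in DHA libraries, against 3.01, 3.73 and 5.69 CPM in control libraries. Control replicate 3 was the highest by far, and the groups did not overlap. The log2 fold change was -0.78 ± 0.26 with an adjusted p of 0.0204 in edgeR's test. Without control replicate 3 it was -0.49 with an adjusted p of 0.102, and without DHA replicate 3 it was -0.69 with an adjusted p of 0.0637, so the call rests on those libraries.

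**Figure D2:**
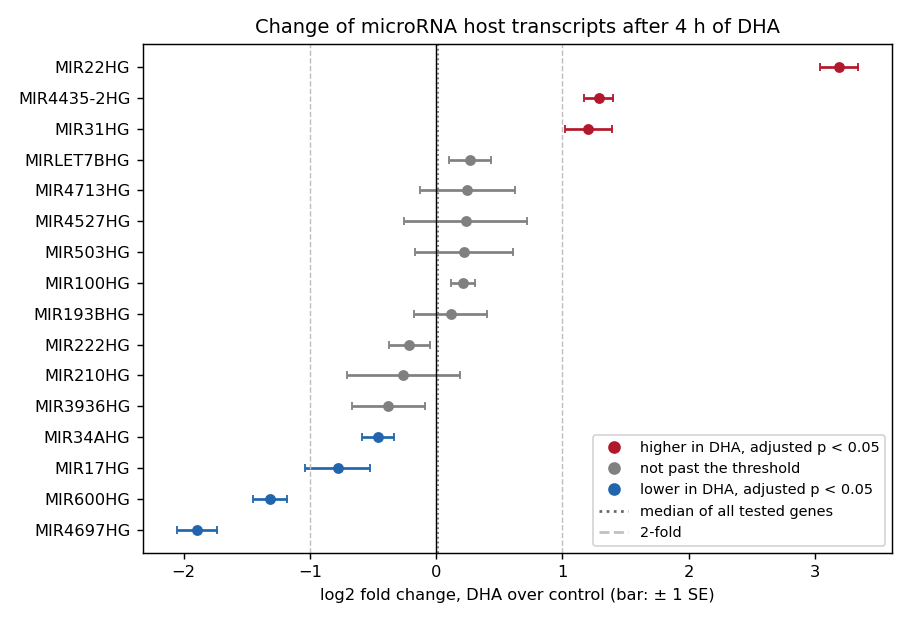
Log2 fold change, DHA over control, of the 16 tested host transcripts, with bars of 1 SE; color marks hosts past an adjusted p of 0.05, and lines mark 2-fold and the median of all tested genes. MIR22HG at 3.19 lies far to the right, MIR4435-2HG at 1.29 and MIR31HG at 1.21 follow, and MIR4697HG at -1.90 and MIR600HG at -1.32 lie to the left of the 2-fold line.

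MIR100HG had the highest CPM of the 54 hosts in both groups and did not pass. It is the host of miR-100, let-7a-2 and miR-125b-1 on chromosome 11. It had 53.3, 62.2 and 58.6 CPM in DHA libraries, against 47.6, 61.5 and 51.7 CPM in control libraries. The groups overlapped, and the log2 fold change was 0.21 ± 0.10 with an adjusted p of 0.0798 in edgeR's test. It passed under 2 of 12 alternatives, of which leaving out control replicate 2 gave 0.30 and an adjusted p of 0.0145.

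The other 8 hosts that missed the threshold had log2 fold changes from -0.38 to 0.27. MIR222HG, which carries the miR-221 and miR-222 pair on chromosome X, had a mean of 8.06 ± 1.15 CPM in DHA, against 10.0 ± 1.81 CPM in control (SD, n = 3 each), and a log2 fold change of -0.21 ± 0.16. MIRLET7BHG, a host of let-7 family members on chromosome 22, had 5.69 ± 0.198 CPM in DHA, against 5.04 ± 0.788 CPM in control, and 0.27 ± 0.16. MIR3936HG did not pass although its groups did not overlap, with 0.945, 1.20 and 0.770 CPM in DHA, against 1.21, 1.33 and 1.56 CPM in control libraries, a log2 fold change of -0.38 ± 0.29 and an adjusted p of 0.279. Over the 16 hosts, 8 had groups that did not overlap, beside 65.5% of all tested genes.

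The last 5 tested hosts had mean levels between 0.559 and 1.22 CPM in DHA and between 0.728 and 1.14 CPM in control. MIR210HG, the host of the hypoxia-induced miR-210, had a log2 fold change of -0.26 ± 0.45. MIR193BHG had 0.11 ± 0.29, MIR503HG 0.22 ± 0.39, MIR4713HG 0.25 ± 0.37 and MIR4527HG 0.23 ± 0.48. Their adjusted p ranged from 0.592 to 0.752 in edgeR's test, and a missed threshold does not show that their levels were equal.

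Of the 38 hosts below the filter, 15 had no count in any library, 17 had at most 9 counts in a library and 6 reached 10. A level of 0 allows up to 0.0656 CPM over the DHA libraries and 0.0583 CPM over the control libraries, a limit of 3 counts that covers counting error only.

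The 6 hosts with 10 counts or more in a library are given by their counts. MIR194-2HG had 8, 10 and 12 counts in DHA libraries, against 1, 2 and 2 in control libraries. MIR7-3HG had 6, 5 and 13 in DHA and 0 in every control library. Its DHA mean was 9.23-fold a control level set at a floor of 3 counts in all. That ratio ran from 5.83 to 11.3 with 1 library left out, and it takes the DHA mean without error. Both hosts had groups that did not overlap, and so did MIR181A1HG and MIR155HG, of which MIR155HG was lower in DHA. Each of these hosts reached 10 counts only in the group where it was higher. Picking hosts by their highest count therefore favours groups that lie apart, and nothing is concluded from it. The share of 65.5% without overlap is over tested genes, which passed the filter, so it is no like background. With fewer counts, MIR181A2HG, MIR7515HG and MIRLET7DHG also had groups that did not overlap, each higher in DHA. MIR181A1HG had 5, 15 and 4 counts in DHA, against 3, 2 and 0 in control libraries. MIR155HG, the host of the immune-cell microRNA miR-155, had 1, 1 and 2 in DHA, against 4, 12 and 4 in control libraries. MIR200CHG, whose miR-200c maintains the epithelial state, had 7, 9 and 7 in DHA, against 11, 1 and 8 in control libraries, and MIR2052HG had 10, 3 and 10 in DHA, against 9, 3 and 7 in control libraries. These last 2 overlapped between groups. Of the hosts with fewer counts, MIR497HG, MIR663AHG and MIR4290HG, singled out after their values were seen, also had 0 in every control library. In DHA libraries MIR497HG had 0, 5 and 6 counts, MIR663AHG had 1, 7 and 0, and MIR4290HG had 0, 1 and 4, so each also had a DHA library at 0 and no fold is given.

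**Figure D3:**
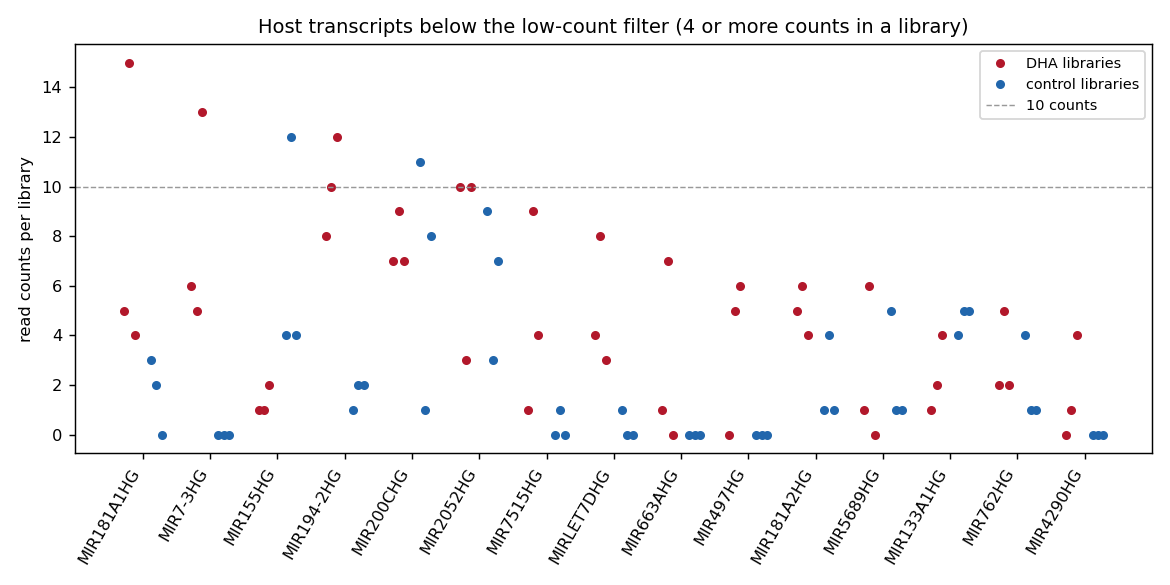
Read counts per library of the 15 host transcripts below the low-count filter that had 4 or more counts in a library, with DHA left of control; the dashed line marks 10 counts. MIR7-3HG has 5 to 13 counts in DHA and 0 in every control library, and MIR155HG reaches 12 counts in control.

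The authors' deposited table lists 2969 genes, beside 39293 gene names in the count table. Of the 54 hosts it lists 8, with log2 fold changes from the authors' own test, 5 that were tested here and 3 that were too low. By its name that table was cut at a log2 fold change of 1 and a false discovery rate of 0.05. Hosts with smaller changes are therefore not listed. For 2968 of its 2969 genes its counts equal those used here, so it is no independent measurement. In the authors' deposited table the 5 have 3.18 for MIR22HG, 1.28 for MIR4435-2HG, 1.20 for MIR31HG, -1.91 for MIR4697HG and -1.33 for MIR600HG. For the 3 low hosts the authors' deposited table has 2.84 for MIR194-2HG, 5.73 for MIR7-3HG and 4.02 for MIRLET7DHG. MIRLET7DHG had 4, 8 and 3 counts in DHA libraries, against 1, 0 and 0 in control libraries. MIR7-3HG had 0 in every control library, so these 2 values rest on almost no control counts. The adjusted p in the authors' deposited table is 0.0114 for MIR194-2HG, 0.000686 for MIR7-3HG and 0.0379 for MIRLET7DHG.

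The count table also has separate entries for the hairpins, 83 of which lie inside the span of the hosts, on either strand. All 28 within exons and all 5 across an exon edge had 0 counts in every library, while 20 of the 50 within introns had a count, 76 counts in DHA and 46 in control libraries. MIR221, inside MIR222HG, had 7, 14 and 8 counts in DHA, against 4, 5 and 6 in control libraries. MIR222 in the same host had 1, 1 and 1 in DHA, against 4, 1 and 0 in control libraries. MIRLET7D, inside MIRLET7DHG but on the opposite strand, had 3, 9 and 3 in DHA, against 1, 1 and 1 in control libraries. MIR221 and MIRLET7D had the most counts of all these hairpins. MIR31, inside MIR31HG, had 1, 2 and 5 in DHA and 0 in each control library, while inside MIR100HG MIRLET7A2 had 0 in each DHA library, against 2, 2 and 1 in control libraries. Of the 20 hairpins with a count, 11 had more in DHA, 8 had more in control and 1 had equal numbers. Whether the counting set aside reads shared by a hairpin and an exon of its host is stated nowhere in the sources used.

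The start regions of MIR22HG and MIR4435-2HG, the 2 hosts with the highest levels among those that rose, are printed here from RefSeq (GRCh38.p14), 250 bases before to 50 bases after the start, 5′ to 3′ on the minus strand, because these hosts rose. Capitals mark the motif found.
MIR22HG, chr17:1716161-1716460: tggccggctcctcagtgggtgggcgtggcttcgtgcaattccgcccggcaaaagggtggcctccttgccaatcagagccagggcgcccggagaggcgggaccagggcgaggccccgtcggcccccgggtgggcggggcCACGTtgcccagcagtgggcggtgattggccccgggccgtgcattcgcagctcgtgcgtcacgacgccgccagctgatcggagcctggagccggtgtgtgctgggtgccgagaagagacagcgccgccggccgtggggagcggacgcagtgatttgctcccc
MIR4435-2HG, chr2:111495112-111495411: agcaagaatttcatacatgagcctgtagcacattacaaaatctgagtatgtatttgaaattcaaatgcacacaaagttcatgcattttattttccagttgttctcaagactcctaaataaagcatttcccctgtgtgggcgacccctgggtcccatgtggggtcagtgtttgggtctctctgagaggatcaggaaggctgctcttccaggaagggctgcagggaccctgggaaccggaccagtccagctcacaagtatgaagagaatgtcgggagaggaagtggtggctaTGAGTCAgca

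The start region of MIR22HG has a GC content of 72.3% and that of MIR4435-2HG 47.7%, beside a median of 58.7% over 35116 promoters. Each was searched on both strands for 7 motifs: AP-1 as TGANTCA, CRE as TGACGTCA, the antioxidant element as TGACNNNGC, the hypoxia element as ACGTG, the E-box as CACGTG, which contains the hypoxia element, the heat shock element as GAANNTTC and the TATA box as TATAAA. MIR22HG held the hypoxia element, read as CACGT, at position -112 from its start, and MIR4435-2HG held AP-1, as TGAGTCA, at position 41 past its start. Over all promoters 21.4% hold the hypoxia element and 7.71% hold AP-1. These start regions were compared with no other measurement, and a match is a string of letters, not a site.

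MIR34AHG and MIR600HG also held the hypoxia element, at -36 and -170. MIR31HG and MIR17HG held none of the 7 motifs. MIR4697HG had no entry. The RefSeq start lies inside the gene of the deposited table by 964 bases for MIR22HG and by 14645 bases for MIR34AHG, so their motifs lie within those genes.

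Genes next to the hosts were read to see whether they moved too. WDR81, which overlaps MIR22HG on the other strand, had a log2 fold change of -0.11 ± 0.10 with an adjusted p of 0.390, TLCD2 at 1055 bases had -0.36 ± 0.32 and SERPINF2 at 25662 bases had 0.36 ± 0.26. None of the 3 passed in edgeR's test, beside 3.19 for MIR22HG. IFNE, an interferon gene inside MIR31HG on the same strand, rose by a log2 of 2.34 ± 0.34 with an adjusted p of 0.000101, with a mean of 2.25 CPM in DHA, against 0.476 CPM in control libraries. KLHL9, 120262 bases away, had -0.10 ± 0.09 and did not pass, and the pseudogene KHSRPP1 fell by 0.63 on the log2 scale.

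BCL2L11, which encodes the pro-death protein BIM, lies 27903 bases from MIR4435-2HG. In mouse myeloid cells the related transcript Morrbid represses Bcl2l11. Here BCL2L11 rose by a log2 of 0.82 ± 0.08 with an adjusted p of 5.46e-06, with a mean of 71.5 CPM in DHA, against 43.3 CPM in control libraries. ANAPC1 on the far side, 271171 bases away, fell by 0.62 on the log2 scale, and AC068491.4 inside the host rose by 0.83 ± 0.29. Beside MIR4697HG, IGSF9B at 6963 bases had -1.03 ± 0.12 with an adjusted p of 2.21e-05, and SNX19, which is far off at 2979929 bases, had -0.46 ± 0.09. STRBP, which overlaps MIR600HG on the same strand, had -0.42 ± 0.07 with an adjusted p of 0.000449, while RABGAP1 and CRB2 did not pass.

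**Figure D4:**
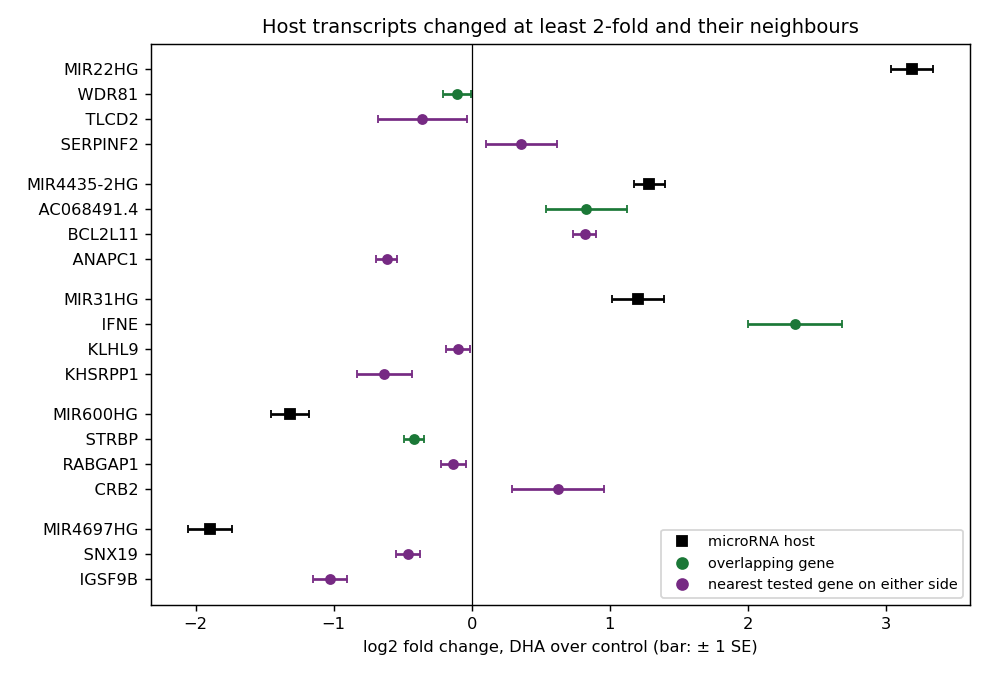
Log2 fold change, DHA over control, of each host that changed at least 2-fold (squares) and of the overlapping and nearest tested genes (circles), with bars of 1 SE. MIR22HG at 3.19 stands beside neighbours between -0.36 and 0.36, and MIR31HG at 1.21 beside IFNE at 2.34.

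Of 14 tested genes of the microRNA processing and Argonaute core, whose proteins cut host transcripts and carry the mature strand, 9 fell, 1 rose and 4 did not pass, so that 71.4% passed, beside 59.6% of all tested genes. Over all tested genes 30.1% fell and 29.6% rose. The median log2 fold change of the 14 was -0.49. AGO1, an Argonaute, had 45.4 ± 1.20 CPM in DHA, against 157 ± 3.75 CPM in control, and fell by 1.70 on the log2 scale with an adjusted p of 4.88e-09. Its partner in silencing TNRC6B fell by 1.66, AGO2 by 0.86 and DICER1 by 0.67. TARBP2, the Dicer partner, was the 1 that rose, by 0.38 ± 0.10. DROSHA, DGCR8, RAN and PRKRA did not pass, with log2 fold changes of -0.02, -0.13, -0.15 and 0.09, and RAN passed in 3 and DGCR8 in 2 of 12 alternatives. Drosha and DGCR8 cut the host transcript, RAN drives export of the hairpin and PRKRA is another Dicer partner.

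Of 18 tested regulators of microRNA processing and turnover, 3 rose and 8 fell, 61.1% of them, beside 59.6% of all tested genes. The median log2 fold change of the 18 was -0.07. DDX17, a helicase of the Drosha complex, fell by 1.17 and ADAR, which edits double-stranded RNA, by 0.93 on the log2 scale. QKI fell by 0.88 and NCBP1 by 0.53. SRSF3 rose by 0.62, SRRT by 0.39 and TUT7, listed under the older symbol ZCCHC6, by 0.25. TUT7 lost its call in 6 of 12 alternatives.

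Of 34 tested protein-coding genes listed as hosts of microRNAs, 7 rose, 16 fell and 11 missed the threshold. The share that passed was 67.6%, beside 59.6% of all tested genes. Whether each listed gene lies on the strand of its microRNA was not checked. Of the 7 that rose, NFYC lost its call in 4 and PANK2 in 7 of 12 alternatives, and 6 of the 11 that missed passed in at least 1. The median log2 fold change of the 34 was -0.22. PANK3, a host of miR-103a, fell by 1.35 on the log2 scale, and PPARGC1B, the host of miR-378a, by 1.77. LPP, the host of miR-28, fell by 0.95 and CTDSPL, a host of miR-26a, by 0.91. Chosen after their values were seen, AATK rose by 1.97, ACADVL rose by 0.75, and MCM7, whose intron holds a related cluster of the miR-17 family, had -0.03. Among noncoding hosts under other names, 4 of 8 were tested: PVT1, an RNA beside MYC, rose by 0.68 with an adjusted p of 3.90e-05. FTX, from the X inactivation center, fell by 0.35, CARMN, the host of miR-143 and miR-145, fell by 0.75, and DLEU2, the host of miR-15a, had -0.36 and passed only without control replicate 1. FTX lost its call in 5 and CARMN in 9 of 12 alternatives.

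**Figure D5:**
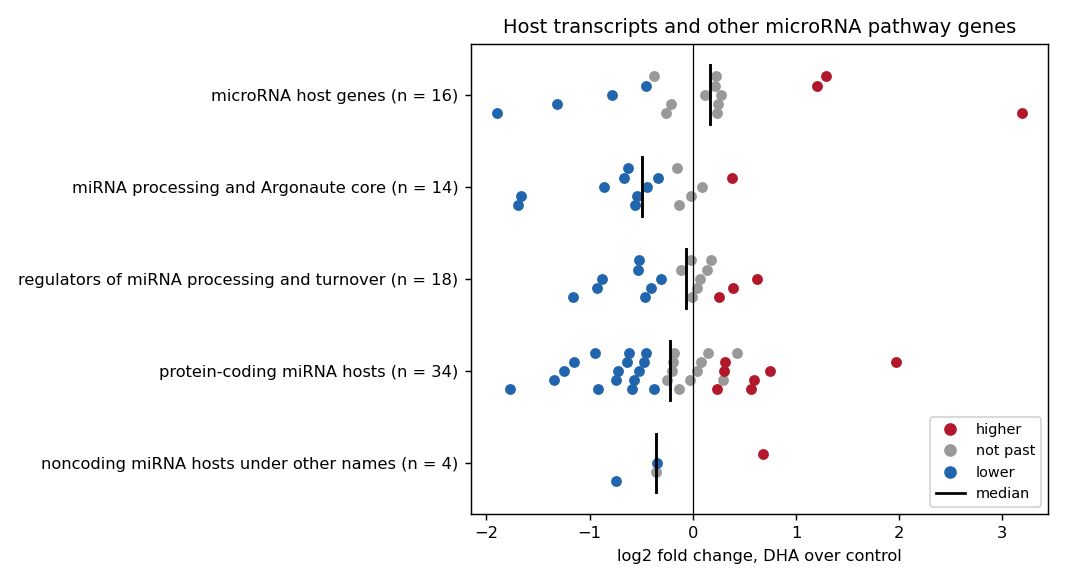
Log2 fold change, DHA over control, of the tested host transcripts and of the other groups of microRNA genes; points are genes, colored by whether they passed, and the line marks each group's median, which is 0.16 for the hosts and -0.49 for the processing and Argonaute core.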

How the data were processed

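Poly(A) RNA of SW480 cells was sequenced in 3 DHA and 3 control libraries, grouped by their treatment labels. The values used are raw counts of 40846 genes, as the authors deposited them. HISAT2 and DESeq2 1.18.1 are named in the submitters' processing notes, and no source used here gives the counter, its handling of strand, the gene annotation or the build. A comparison table that the authors deposited lists log2 fold changes beside raw and adjusted p-values of 2969 genes, and in each of them a positive value means higher in DHA. Its name states cuts at a log2 fold change of 1 and a false discovery rate of 0.05. A further deposited table, named for FPKM, holds values that do not have that unit and was not used.

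Rows without a gene (32) were left out. Genes that share a name (1696 genes, 143 names) carry identical counts, so 39293 rows remained. Coordinates are those of the deposited table, of which 96.9% of the 39167 names found in GENCODE 29 (GRCh38) match that release. Of the 54 hosts, 48 match. MIR34AHG and MIR4435-2HG, which passed the test, are among those that do not. Exon numbers, the place of hairpins in exons or introns and levels per kilobase rest on the exons of GENCODE 29. Genes were kept by filterByExpr, scaled by TMM and compared with edgeR 4.0.16 (glmQLFit and glmQLFTest, R 4.3.3, limma 3.58.1), with p-values of 15811 genes adjusted by Benjamini-Hochberg and called under 0.05. CPM values use library totals. DESeq2 1.42.0, other scalings, other filters, a replicate block and leaving out each library were alternatives. Tables and figures used Python 3.11.15, numpy 2.4.6, pandas 2.3.3 and matplotlib 3.10.9. The fit was tested on simulated data. No library was taken for a copy of another: within a group the chi-square per gene was 1.66 to 15.1, against 110 to 141 between groups. With 3 libraries a group the smallest exact permutation p is 0.1, so single values were described.

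Hosts that passed with at least 10 mean counts in a group, and the 3 tested hosts with the highest CPM, are given by library. From each other gene list the 4 smallest adjusted p are named, and every gene of the less frequent direction where it has at most 3. The hosts and gene lists were chosen with earlier results of these data known. Mature microRNA and promoter sequences are from RefSeq (GRCh38.p14).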

Additional observations from a re-analysis of the deposited data

How the results depend on the processing

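Across 12 alternatives MIR22HG kept its call with a log2 fold change of 2.98 to 3.32, MIR4435-2HG with 1.19 to 1.34, MIR31HG with 1.11 to 1.24, MIR4697HG with -2.04 to -1.71, MIR600HG with -1.41 to -1.27 and MIR34AHG with -0.55 to -0.38. MIR17HG ran from -0.98 to -0.49 and lost its call without DHA replicate 3 and without control replicate 3. Of the hosts that did not pass, MIR100HG passed without control replicate 2 and with a replicate block (0.21, adjusted p 0.0441). MIR210HG, MIR503HG, MIR4527HG and MIR4713HG changed sign in at least 1 alternative and passed in none of those that keep them. With no low-count filter, 39 hosts had a fit and 15 passed, 10 of them higher, beside 10983 of 33752 genes, 5487 of them higher. At 2-fold 13 hosts passed, 10 of them higher. The 15 include 8 hosts that the filter leaves out, 7 higher and 1 lower, with at most 15 counts in a library. Of these 8, 2 had a count in fewer than 3 libraries. Leaving out 1 library at a time gave 6 to 9 hosts that passed, 3 to 5 of them higher and 3 to 4 lower. At 2-fold it gave 5 to 6, 3 to 4 of them higher. Of all genes, 8351 to 9399 passed in those fits. MIR194-2HG entered the test and passed without control replicate 2, with a log2 fold change of 2.93 and an adjusted p of 0.00422, and without DHA replicate 1, with 2.88 and an adjusted p of 0.00230. The replicate block gave 8 hosts, 4 higher and 4 lower, and 8906 of all genes. Whether the replicate numbers pair the libraries is not labelled. Same-numbered libraries correlated at 0.021, -0.084 and -0.054 in their deviations from the group means. With 3 libraries a group these values cannot show whether the libraries were paired. For regulators of processing, 2 to 6 rose when a library was left out, and 6 rose without DHA replicate 2. Of noncoding hosts under other names, 1 fell with DESeq2 size factors, with DESeq2, with no filter and with the replicate block, and 0 to 2 fell, 1 to 3 in all passing, when a library was left out. The causes of these shifts in the regulators and other hosts were not tested. With library totals alone, the median log2 fold change of all tested genes was -0.09, and with no low-count filter it was 0.15, beside 0.01. The 38 hosts below the filter had too few counts to test, and whether they are expressed was not tested.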
